A study of Mus musculus with 12 samples.

Results

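The subject of this account is a set of 9 genes that mark B cell precursors, Cd79a, Cd79b, Vpreb1, Vpreb3, Igll1, Pax5, Rag1, Rag2 and Blnk, followed across newborn mouse skull. The genes were chosen by name, and each was found on 1 row of the deposited table of 23358 genes. RNA sequencing was done on frontal bone of mice at postnatal day 3, and the dissected piece also held the nasal bone with the coronal and frontonasal sutures. There were 12 samples in 4 groups of 3. They were wild type C57BL/6, C57BL/6 carrying 1 copy of the mutant allele (FGFR2C342Y/+), wild type BALB/c, and BALB/c carrying 1 copy of the same allele. The allele changes 1 amino acid of the fibroblast growth factor receptor 2 and is used to model Crouzon syndrome, a condition of premature suture closure. It is written here as the mutation, and animals carrying it as mutants. The labels name no other allele and no treatment, and they give neither the sex nor whether a sample is 1 animal or a pool. The p-values therefore measure only the spread between these samples. The design text states the comparison as wild type against mutant on each strain background.

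B cells form in the marrow of newborn bone. A progenitor committed by the transcription factor Pax5 cuts and rejoins its immunoglobulin heavy chain gene with the Rag1 and Rag2 recombinase. The new heavy chain is then tested on the cell surface together with a surrogate light chain, made of the Vpreb1 and Igll1 proteins, in the pre-B cell receptor. The Cd79a and Cd79b proteins carry the signal of this receptor across the membrane, and the adaptor Blnk passes it on inside the cell. Vpreb3 is a related protein of precursor B cells that binds newly made immunoglobulin chains inside the cell. Vpreb1 and Igll1 are switched off once the precursor stage ends, while Cd79a, Cd79b, Pax5 and Blnk stay on in mature B cells. The skull bones are formed directly by osteoblasts and come to hold marrow of their own.

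In the authors' table the 9 genes lie on 7 chromosomes. Igll1 (chr16:16860671-16863985) and Vpreb1 (chr16:16868401-16869255) are neighbours, 4415 bases apart, and Rag2 (chr2:101624748-101632528) and Rag1 (chr2:101638252-101649532) are 5723 bases apart. The remaining rows are Vpreb3 (chr10:75948312-75949646), Cd79a (chr7:24897511-24902197), Cd79b (chr11:106311341-106314529), Pax5 (chr4:44531506-44710440) and Blnk (chr19:40928927-40994535). The table names no build, and the submitters' processing notes name mm10.

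Promoter sequences from RefSeq on GRCm38.p6 were matched for 8 of the 9 genes, and the 250 bases before the RefSeq start were searched for 4 short motifs on both strands. These were CAGNTG, the E-box bound by E proteins such as E2A, CCCNNGGG, the core of the palindrome bound by EBF-type factors, TGTGGT, bound by RUNX factors, and ATTTGCAT, the octamer bound by Oct factors. The promoters of the surrogate light chain genes, of Vpreb3 and of Rag1 are shown because all 4 genes were called lower in C57BL/6 mutants and each holds at least 1 of the motifs. Rag2 was also called lower there, and its window held none. Each runs 5′ to 3′ along its gene, and the capitals mark the motif matches. The windows are chr16:16869256-16869505 on the minus strand for Vpreb1, chr16:16863986-16864235 on the minus strand for Igll1, chr10:75948050-75948299 on the plus strand for Vpreb3 and chr2:101649533-101649782 on the minus strand for Rag1.
Vpreb1: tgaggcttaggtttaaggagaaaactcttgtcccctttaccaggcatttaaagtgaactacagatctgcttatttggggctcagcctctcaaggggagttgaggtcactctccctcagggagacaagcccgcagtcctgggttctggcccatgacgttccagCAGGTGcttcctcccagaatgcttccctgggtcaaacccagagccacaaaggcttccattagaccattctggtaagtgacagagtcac
Igll1: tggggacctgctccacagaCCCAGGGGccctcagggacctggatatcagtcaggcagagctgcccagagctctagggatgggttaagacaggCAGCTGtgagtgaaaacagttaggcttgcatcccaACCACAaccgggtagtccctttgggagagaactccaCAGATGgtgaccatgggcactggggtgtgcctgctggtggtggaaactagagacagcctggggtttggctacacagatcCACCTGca
Vpreb3: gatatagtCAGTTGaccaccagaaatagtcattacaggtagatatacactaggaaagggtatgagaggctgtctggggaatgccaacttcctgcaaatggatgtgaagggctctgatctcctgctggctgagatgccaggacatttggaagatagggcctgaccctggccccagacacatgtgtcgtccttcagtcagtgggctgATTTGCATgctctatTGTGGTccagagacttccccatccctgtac
Rag1: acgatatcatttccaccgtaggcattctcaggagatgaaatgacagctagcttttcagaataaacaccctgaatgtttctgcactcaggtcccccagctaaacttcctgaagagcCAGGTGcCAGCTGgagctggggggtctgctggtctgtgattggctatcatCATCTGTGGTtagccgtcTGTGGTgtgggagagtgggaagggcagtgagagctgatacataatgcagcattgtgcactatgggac

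An E-box match was found in 6 of the 8 promoters, those of Cd79a, Vpreb1, Vpreb3, Igll1, Rag1 and Blnk, against 44.8% of 32851 RefSeq promoters cut to the same length. The Igll1 window held 3 E-box matches and the Rag1 window also held 3. The RUNX hexamer was in 3 of 8 (Vpreb3, Igll1 and Rag1), against 14% of all promoters. In Rag1 one of its 2 copies overlaps an E-box match, which makes the run CATCTGTGGT. The octamer was in 2 of 8, Vpreb3 at 45 bases and Blnk at 130 bases before the start, against 1.60% of all promoters. The EBF-type palindrome was in 1 of 8, Igll1, against 11.8%. The Pax5 and Rag2 windows held no match to any of the 4. These matches describe letters only.

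Total counts per sample ran from 27181658 to 46521546, and all 9 genes passed the filter on low counts, which kept 16190 genes. Levels are given as CPM, the usual unit of counts relative to the library total, after scaling for library composition. At this depth 1 count was worth between 0.0215 and 0.0376 CPM. Every count in the table is even, so 1 read pair appears to be entered as 2 counts, and the precision of low values is that of the pairs. All C57BL/6 samples carry one flow cell name in their descriptions and all BALB/c samples another, so strain and flow cell cannot be told apart, while genotype was compared within a flow cell. Counts from Y-linked genes exceeded those of Xist in 3 of 3 wild type C57BL/6 samples and in 1 of 3 samples of each other group. Of 7 markers of olfactory neurons, which line the nasal cavity, 1 was called lower (Gnal), 1 higher (Adcy3) and 5 not called by edgeR between the C57BL/6 genotypes. Of the 7, 6 had a log2 difference below 0, with a median of -2.58 over the list, all 7 had an unadjusted p under 0.05, DESeq2 called 2 and limma-voom 7. With each marker divided by its mean over the 12 samples, their averages were 2.19 to 4.14 in wild type C57BL/6, 0.249 to 1.51 in mutant C57BL/6 and 0.177 to 0.207 over the 6 BALB/c samples. Of 5 ciliated cell markers tested, which mark airway lining, 4 were called lower in C57BL/6 mutants, against 12.6% of all genes. The median log2 difference of these 5 was -2.20. The sum over all 6 markers listed, tested or not, was 14.2 to 30.7 CPM in wild type C57BL/6, 3.93 to 9.31 in mutant C57BL/6 and 4.45 to 5.94 in BALB/c.

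The summed level of the 9 genes separated the strains and moved in opposite directions with genotype. It was 28.0, 16.3 and 14.7 CPM in the wild type C57BL/6 samples and 12.8, 9.80 and 11.96 CPM in the mutant C57BL/6 samples. In BALB/c it was 39.6, 39.3 and 39.7 CPM in wild type and 73.6, 53.2 and 67.0 CPM in mutants. The lowest BALB/c sample lay above the highest C57BL/6 sample, and mutants lay outside the wild type range in both strains, below it in C57BL/6 and above it in BALB/c. The largest parts of the sum in wild type C57BL/6 were Blnk, Cd79a and Cd79b, at means of 4.684, 4.503 and 3.685 CPM. None of them passed the edgeR test between the C57BL/6 genotypes. In whole tissue such as this, fewer precursor cells and less of these RNAs per cell cannot be told apart.

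**Figure D1:**
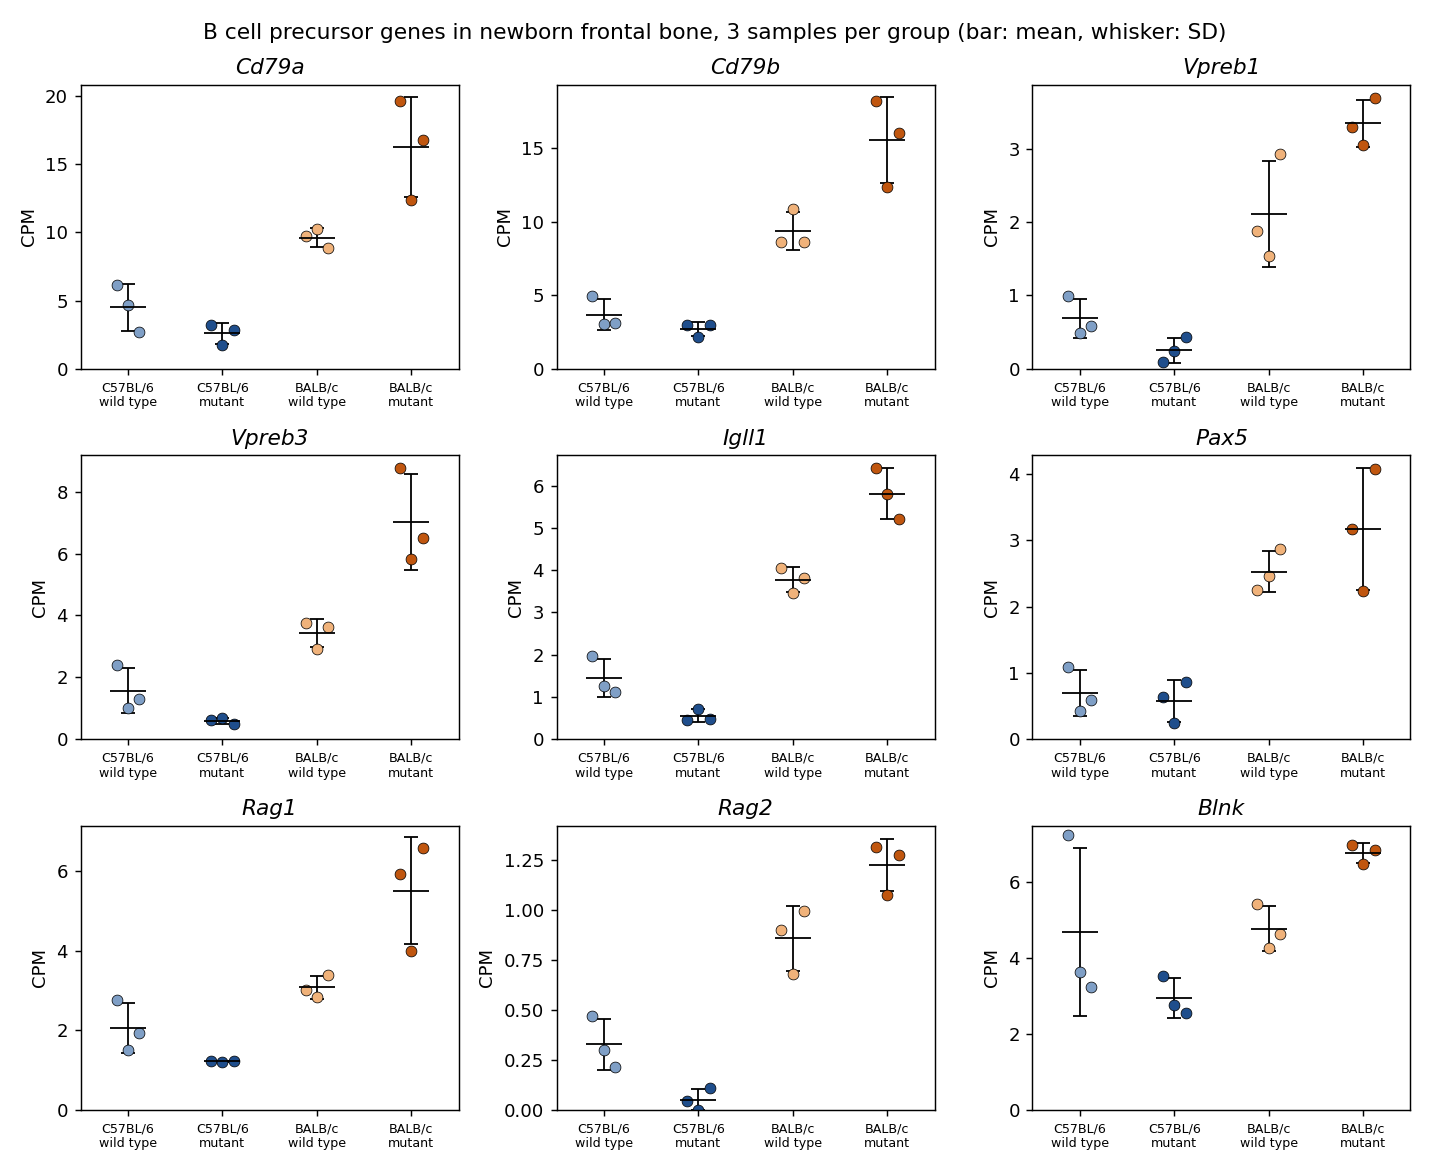
Level of each of the 9 genes in CPM (linear axis from 0, scaled separately for each gene) by group. Points are the 3 samples of a group, the bar is their mean and the whisker their SD; Igll1 lies between 0.452 and 0.728 CPM in the C57BL/6 mutants and between 5.22 and 6.42 CPM in the BALB/c mutants.

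Divided by the gene length in the authors' table, the order of the genes was much alike in the 4 groups. Cd79a and Cd79b were the highest pair in every group. In wild type BALB/c their levels were 7.23 ± 0.535 and 7.82 ± 1.08 CPM per kilobase (SD, n = 3), which did not differ beyond their spread. Vpreb3 came next, at rank 3, in every group but the C57BL/6 mutants, where Blnk held that rank and Vpreb3 rank 4. Rag1 was at rank 8 and Rag2 last in every group. Blnk had rank 4 in wild type and 3 in mutant C57BL/6, and rank 6 in both BALB/c groups.

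Of the genes for the surrogate light chain and its relative, Igll1, which encodes the lambda5 part, was measured at 1.97, 1.26 and 1.13 CPM in the wild type C57BL/6 samples. The mutant C57BL/6 samples were at 0.452, 0.728 and 0.485 CPM, all below the lowest wild type value. The fall was -1.39 on the log2 scale (SE 0.261, edgeR adjusted p = 0.00428). In BALB/c the wild types were at 4.06, 3.46 and 3.81 CPM and the mutants at 6.42, 5.81 and 5.22 CPM. Those groups did not overlap either, and here the mutants were the higher ones. Their difference of 0.62 (SE 0.235) did not pass the edgeR test over all genes (adjusted p = 0.332).

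Vpreb1, which encodes the other surrogate light chain protein, was measured at 0.987, 0.482 and 0.590 CPM in wild type C57BL/6. In the mutants it was at 0.0904, 0.242 and 0.431 CPM, counts of only 4, 10 and 16. It fell by 1.45 on the log2 scale (SE 0.475, edgeR adjusted p = 0.0454), and this call was lost when any of 9 samples was left out. In BALB/c it was at 1.88, 1.54 and 2.93 CPM in wild type and 3.30, 3.06 and 3.69 CPM in mutants. The BALB/c groups did not overlap, with a log2 difference of 0.66 (SE 0.407, edgeR adjusted p = 0.591). Of the 50-base words of Vpreb1 transcripts, 23.6% also occur in Vpreb2 or Top3b, so that reads may have been split between near-identical copies. Vpreb2, the second copy of the gene, had 2 counts over the 6 C57BL/6 samples and between 6 and 12 in each BALB/c sample.

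Vpreb3 was measured at 2.39, 1.02 and 1.29 CPM in wild type C57BL/6 and at 0.633, 0.679 and 0.485 CPM in the mutants. The groups did not overlap, and the mutants spread less than the wild types. It fell by 1.38 on the log2 scale (SE 0.316, edgeR adjusted p = 0.0102). In BALB/c the wild types were at 3.76, 2.90 and 3.63 CPM and the mutants at 8.75, 5.81 and 6.50 CPM. This was the largest BALB/c difference among the 9 genes, 2.05-fold by group means and 1.03 on the log2 scale (SE 0.287). It did not pass the edgeR test (adjusted p = 0.187) and did pass with DESeq2 (adjusted p = 0.0235).

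Of the genes for receptor signalling, Cd79a was measured at 6.13, 4.70 and 2.68 CPM in wild type C57BL/6 and 3.21, 1.75 and 2.86 CPM in the mutants. The groups overlapped, and the log2 difference of -0.79 (SE 0.293) did not pass the test (edgeR adjusted p = 0.0687) and was -0.48 without wild type replicate 1. In BALB/c it was at 9.69, 10.2 and 8.84 CPM in wild type and 19.6, 12.4 and 16.7 CPM in mutants. There every mutant lay above every wild type, with a log2 difference of 0.76 (SE 0.277, edgeR adjusted p = 0.315). Cd79b, its partner chain, was measured at 4.94, 3.01 and 3.11 CPM in wild type C57BL/6 and 2.98, 2.18 and 2.96 CPM in the mutants. The highest mutant lay just under the lowest wild type, with a log2 difference of -0.45 (SE 0.221, edgeR adjusted p = 0.157), and -0.16 without that replicate. In BALB/c Cd79b was at 8.64, 10.9 and 8.61 CPM in wild type and 18.2, 12.4 and 16.04 CPM in mutants. Its log2 difference of 0.73 (SE 0.210) had an edgeR adjusted p of 0.204, and it passed with DESeq2 (adjusted p = 0.0344).

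Blnk, the adaptor downstream of the receptor, was measured at 7.22, 3.61 and 3.22 CPM in wild type C57BL/6 and 3.52, 2.76 and 2.53 CPM in the mutants. Replicate 1 stood far above the other wild types, and the rest overlapped. The log2 difference was -0.67 (SE 0.269, edgeR adjusted p = 0.0874), and -0.19 without that replicate. In BALB/c it was at 5.41, 4.26 and 4.63 CPM in wild type and 6.96, 6.46 and 6.84 CPM in mutants. Those groups did not overlap, with a log2 difference of 0.50 (SE 0.266, edgeR adjusted p = 0.504).

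Of the recombinase genes, Rag1 was measured at 2.75, 1.51 and 1.93 CPM in wild type C57BL/6 and at 1.22, 1.21 and 1.24 CPM in the mutants. All mutants lay just below the lowest wild type. It fell by 0.75 on the log2 scale (SE 0.251, edgeR adjusted p = 0.0476). That call sat at the threshold: it was lost when any of 10 samples was left out, and without wild type replicate 1 the difference was -0.47. In BALB/c Rag1 was at 3.00, 2.84 and 3.40 CPM in wild type and 5.94, 4.00 and 6.59 CPM in mutants. The BALB/c groups did not overlap, with a log2 difference of 0.84 (SE 0.242, edgeR adjusted p = 0.204).

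Rag2, the partner of Rag1 in the recombinase, was the least abundant of the 9 genes. It was measured at 0.468, 0.301 and 0.214 CPM in wild type C57BL/6 and at 0.0452, 0 and 0.108 CPM in the mutants. The mutant values are counts of 2, 0 and 4. Over the group this is 3 read pairs against 18 in wild type, a ratio of 6.75 at equal depth (95% exact interval 1.97 to 35.8, counting error only). The gene passed the edgeR test as lower (adjusted p = 0.0147), except without wild type replicate 1 (adjusted p = 0.0608), and its fitted change of -2.65 on the log2 scale depends on the prior count. In BALB/c it was at 0.902, 0.679 and 0.996 CPM in wild type and 1.32, 1.08 and 1.28 CPM in mutants, a log2 difference of 0.51 (SE 0.476, edgeR adjusted p = 0.749). Rag2 overlaps B230118H07Rik on the opposite strand, a gene at 8.13 to 12.2 CPM, and the sources used here do not say whether counting used strand. Reads of the pair may therefore not be separable. B230118H07Rik averaged 9.08 CPM in wild type and 9.06 CPM in mutant C57BL/6, and 11.8 and 9.48 CPM in BALB/c, and its part in the Rag2 values was not tested.

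Pax5, the transcription factor of B cell commitment, was the member with the least genotype difference. It was measured at 1.09, 0.421 and 0.590 CPM in wild type C57BL/6 and 0.633, 0.242 and 0.862 CPM in the mutants. In BALB/c it was at 2.25, 2.47 and 2.87 CPM in wild type and 3.18, 2.24 and 4.08 CPM in mutants. The genotypes overlapped in both strains. Its log2 differences were -0.29 (SE 0.453, edgeR adjusted p = 0.680) and 0.32 (SE 0.414, edgeR adjusted p = 0.834), each smaller than its standard error. With 1 sample left out the BALB/c difference was between 0.093 (without mutant replicate 18) and 0.52 (without mutant replicate 17).

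Counted together, 5 of the 9 genes passed the edgeR test in C57BL/6, all lower in mutants: Vpreb1, Vpreb3, Igll1, Rag1 and Rag2. Over all genes tested, 12.6% passed as lower, 11.3% as higher and 23.9% in either direction. All 9 log2 differences were below 0, as were 50.6% over all genes. The groups did not overlap, with mutants lower, for these 5 and Cd79b, 6 of 9 against 21.9% of all genes. The median log2 difference of the 9 was -0.79, beside -0.004 over all genes. Wild type replicate 1 was the highest of its group for each of the 9 genes. Without it 2 of 9, Igll1 (-1.08, adjusted p = 0.0156) and Vpreb3 (-0.92, adjusted p = 0.0384), passed, and the Pax5 difference turned to 0.21. In that fit 2184 genes passed, against 3867 with all samples. Fitted on the 6 C57BL/6 samples alone, 0 members passed, of 8 that could be tested. Igll1 had an adjusted p of 0.0519 there and Vpreb3 of 0.0668. Scaling by total counts in place of TMM moved the median of all genes to -0.20 in C57BL/6 and to 0.24 for the difference between the strains' effects, and left the direction of all 9 genes as it was in both; differences of 0.4 or less given below for C57BL/6 are to be read against that shift.

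In BALB/c 0 of the 9 genes passed the edgeR test, and only 22 genes of all tested did (0.136% in either direction, 0.0926% higher). At an unadjusted p under 0.05 there were 5 members, Cd79a, Cd79b, Vpreb3, Igll1 and Rag1, against 7.11% of all genes higher. DESeq2 called 2, Cd79b and Vpreb3, and limma-voom called 0. All 9 log2 differences were above 0, as were 49.9% over all genes, and their median was 0.66. For 8 of the 9, all but Pax5, every mutant lay above every wild type, against 9.93% of all genes. For 6 genes the groups did not overlap in either strain, with mutants lower in C57BL/6 and higher in BALB/c. This pattern was shown by 516 genes, 3.19% of those tested.

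**Figure D2:**
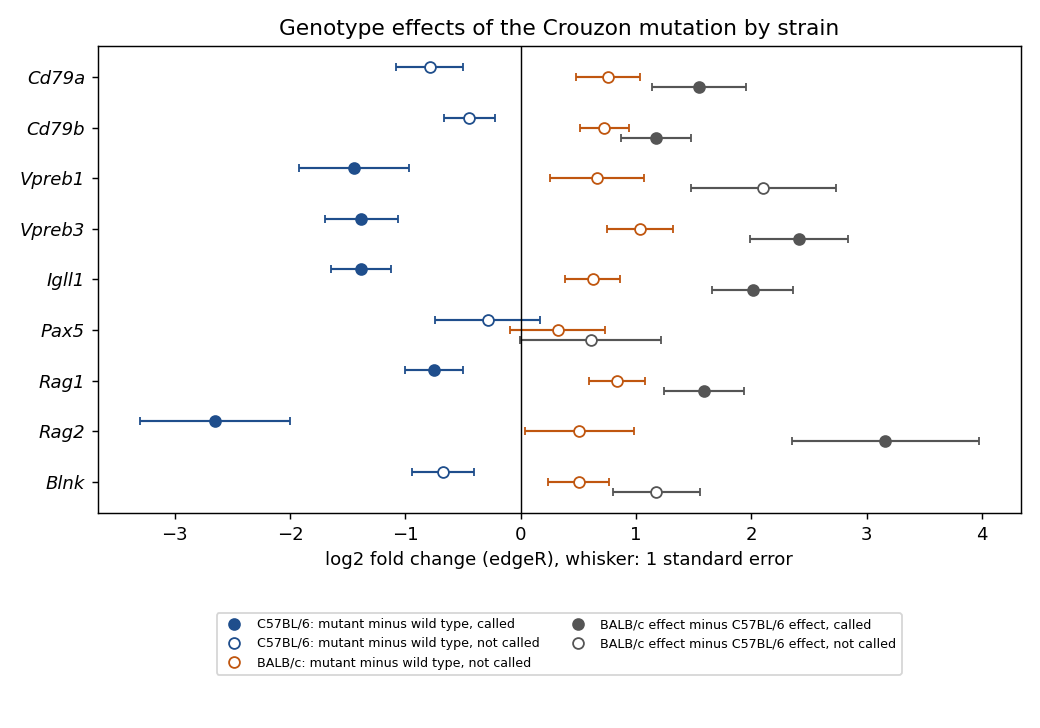
Genotype differences of the 9 genes on the log2 scale (horizontal axis), with 1 standard error as whisker. Blue is mutant minus wild type in C57BL/6, orange the same in BALB/c and grey the second minus the first; filled points have an adjusted p under 0.05 (edgeR). Every blue point lies left of 0 and every orange and grey point right of it.

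Whether the mutation's effect depended on strain was tested as the BALB/c genotype difference minus the C57BL/6 one, so that an effect of the flow cell that is the same for both genotypes drops out. It passed for 6 of the 9 genes, all above 0, against 5.46% of all genes called above 0 and 4.58% below 0. Vpreb3 differed by 2.42 on the log2 scale (SE 0.427, edgeR adjusted p = 0.00775), Igll1 by 2.01 (SE 0.352, adjusted p = 0.00756) and Rag1 by 1.59 (SE 0.349, adjusted p = 0.0190). These 3 calls held in all 17 alternative fits. Rag2 differed by 3.16 (SE 0.811, edgeR adjusted p = 0.0345), Cd79a by 1.55 (SE 0.404, adjusted p = 0.0357) and Cd79b by 1.17 (SE 0.305, adjusted p = 0.0354). These 3 held in 10, 7 and 9 of the 17. Vpreb1 at 2.11 (edgeR adjusted p = 0.0535) and Blnk at 1.17 (adjusted p = 0.0672) did not pass, nor did Pax5 at 0.61 (adjusted p = 0.544). Without C57BL/6 wild type replicate 1 Blnk was at 0.70 and Pax5 at 0.12, and Pax5 was at 0.25 and 1.01 without C57BL/6 mutant replicates 5 and 6 and at 0.38 without BALB/c mutant replicate 18. Without C57BL/6 wild type replicate 1 the count of called members was 3, and it was also 3 without BALB/c wild type replicate 13 or 15 or mutant replicate 16 or 18.

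**Figure D3:**
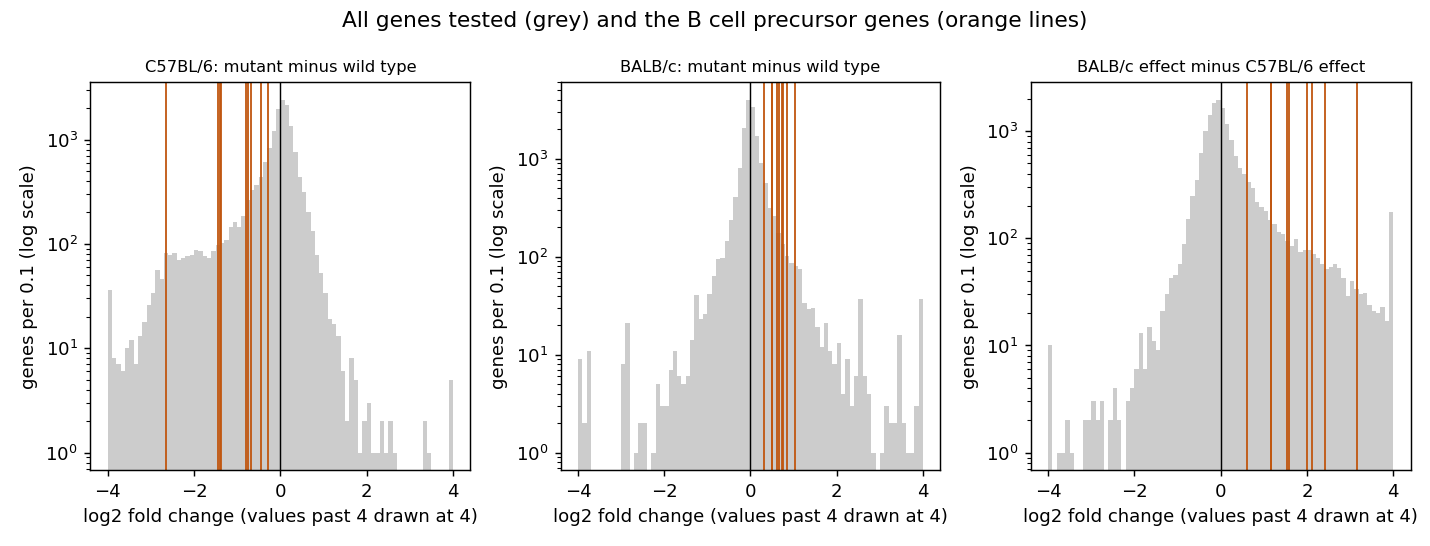
Distribution of the log2 fold changes of the 16190 genes tested (grey, vertical axis on a log scale, number of genes per step of 0.1) for the genotype difference in C57BL/6, in BALB/c, and for the difference between them, with values past 4 in either direction drawn at 4. The 9 genes (orange lines) lie left of 0 in the first panel, at -0.29 to -2.65, and right of 0 in the other panels, at 0.32 to 1.03 and 0.61 to 3.16.

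Beside the genotype difference the C57BL/6 samples differ in their balance of sex-linked RNA and in the level of the olfactory and ciliated cell markers, as given above. Wild type replicate 1, the highest of its group for all 9 genes, also had the highest average of the olfactory markers (4.14, against 2.19 and 2.50). It also had the highest sum of the ciliated cell markers, 30.7 CPM, and the lowest of the osteoblast markers, 61710 against 109100 and 107800 CPM. Among the mutants the olfactory average was 1.51 in replicate 4, against 0.249 and 0.271 in the others. The part of the sex-linked balance and of the olfactory, ciliated cell and osteoblast markers in the results for the 9 genes was not tested.

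Between strains, 7 of the 9 genes were higher in BALB/c than in C57BL/6 wild types, against 22.8% of all genes. Pax5 differed by 1.84 on the log2 scale (SE 0.442, edgeR adjusted p = 0.00504), Vpreb1 by 1.62 (SE 0.432, adjusted p = 0.00902) and Igll1 by 1.37 (SE 0.245, adjusted p = 0.000926). Cd79b differed by 1.34, Cd79a by 1.09 and Vpreb3 by 1.12. Rag2 differed by 1.38, but this call (adjusted p = 0.0419) was lost in 9 of 17 alternative fits. The genes that did not pass were Rag1 (0.58, adjusted p = 0.0716) and Blnk (0.02, adjusted p = 0.954). Blnk, the gene with overlapping groups here, averaged 4.68 ± 2.21 CPM in C57BL/6 and 4.77 ± 0.586 CPM in BALB/c (SD, n = 3).

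Between the mutants of the strains the gap was wider. All 9 genes were higher in BALB/c mutants than in C57BL/6 mutants, against 18% of all genes, and each call held in all 17 alternative fits. The group means of Vpreb1 differed 13.2-fold (3.72 on the log2 scale, SE 0.475, edgeR adjusted p = 0.000113). Those of Vpreb3 differed 11.7-fold and those of Igll1 10.5-fold (3.38 on the log2 scale, SE 0.266, edgeR adjusted p = 3.81e-06). Cd79a was 6.24-fold, Cd79b 5.73-fold, Pax5 5.47-fold, Rag1 4.50-fold and Blnk 2.30-fold higher. Rag2 also passed (adjusted p = 0.00019), with the 3 read pairs of the C57BL/6 mutants as its base. The surrogate light chain genes and Vpreb3 thus had larger ratios than the signalling genes, a difference between genes that was not itself tested. Strain and flow cell cannot be told apart in these 2 comparisons.

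The other genes of the pathway were taken as lists. Of 16 transcription factors that act in B cell development, 6 fell in C57BL/6 mutants and 1 rose, with a median log2 difference of -0.52. Myb, a factor of blood progenitors, went from 10.3 ± 4.84 to 2.88 ± 0.827 CPM (SD, n = 3), or -1.84 on the log2 scale (edgeR adjusted p = 0.00171). Ikzf1, which encodes Ikaros, went from 13.9 ± 5.14 to 6.67 ± 0.362 CPM (-1.06, adjusted p = 0.00436). Ebf1, an early B cell factor that is also made in stromal cells, was lower by 0.45 (adjusted p = 0.0242). Bcl11a, Pou2f2 and Erg were the others that fell. The gene that rose was Sfpi1, which encodes PU.1, a factor shared with macrophages and osteoclasts, from 24.3 ± 0.300 to 39.5 ± 1.61 CPM (0.70, adjusted p = 0.000205). In BALB/c 0 of 16 passed with edgeR, 8 had an unadjusted p under 0.05, DESeq2 called 3 and limma-voom 0. The strain difference of the genotype effect passed above 0 for 7 (Myb, Ikzf1, Ikzf3, Bcl11a, Pou2f2, Pou2af1 and Ebf1) and below 0 for Sfpi1. Over all genes, 5.46% passed above 0 and 4.58% below 0.

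Of 13 genes around pre-B cell receptor signalling, 1 fell and 5 rose in C57BL/6 mutants, against 12.6% and 11.3% of all genes. The one that fell was Cd24a, a surface protein of precursor B cells that is also abundant on immature red cells, from 90.9 ± 21.2 to 25.3 ± 3.08 CPM (-1.84, edgeR adjusted p = 5.11e-05). Among those that rose were Syk (0.40, adjusted p = 0.00395) and Pik3ap1 (0.52, adjusted p = 0.00791), both of which are also used in myeloid cells. The difference between the strains' effects passed for Cd24a (2.42, adjusted p = 0.000109). In BALB/c 0 of 13 passed with edgeR, 8 had an unadjusted p under 0.05, DESeq2 called 4 and limma-voom 2.

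Of 10 receptors and surface proteins of lymphoid progenitors, 4 fell and 2 rose in C57BL/6 mutants, against 12.6% and 11.3% of all genes. Il7r, the receptor chain for the interleukin that drives mouse B cell precursors, went from 1.29 ± 0.487 to 0.486 ± 0.146 CPM (-1.41, edgeR adjusted p = 0.0277). Spn, which encodes CD43 of early precursors, went from 5.81 ± 0.942 to 2.56 ± 0.330 CPM (-1.18, adjusted p = 0.000662). Ly6d and Enpep also fell, and Jak3 rose by 0.34 (adjusted p = 0.00220). Il7r, Spn and Ly6d also passed in the difference between strains. Between the wild types 4 of the 10 were called higher in BALB/c, against 22.8% of all genes, and 2 lower. Those lower were Ly6d (-3.00, edgeR adjusted p = 0.000207) and Enpep (-0.63, adjusted p = 0.000468), while the 9 precursor genes all had differences above 0. In BALB/c 0 of 10 passed with edgeR, 2 had an unadjusted p under 0.05, and DESeq2 and limma-voom called 0. None of 8 genes for joining the cut ends passed in C57BL/6 with edgeR (3 with an unadjusted p under 0.05, DESeq2 2, limma-voom 1). One of them, Dntt, which adds bases at the joins, was at 0 counts in all 3 C57BL/6 mutants and at 4, 0 and 6 counts in the wild types. In BALB/c Dntt was at 12, 4 and 10 counts in wild type and 10, 20 and 24 counts in mutants. Of 5 signals that bone cells send to B cell precursors, Il7, Cxcl12, Kitl, Flt3l and Tslp, 0 passed in either strain with edgeR. In C57BL/6 and in BALB/c alike, 1 had an unadjusted p under 0.05, and DESeq2 and limma-voom called 0. Of 8 immunoglobulin chain genes listed, 2 were matched in the table (Vpreb2 and Igj), and neither passed the filter on low counts.

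Markers of the other cells that the tissue could hold were read in the same way. Of 8 mature B cell markers, 7 passed the filter and 0 passed the test in C57BL/6 (unadjusted 0, DESeq2 0, limma-voom 0) or in BALB/c (unadjusted 1, DESeq2 0, limma-voom 0). Their sum was 8.55 to 10.1 and 7.47 to 10.2 CPM in wild type and mutant C57BL/6, and 10.7 to 11.8 and 13.5 to 17.3 CPM in wild type and mutant BALB/c. The C57BL/6 sums overlapped and the BALB/c sums did not, whereas the sums of the precursor genes overlapped in neither strain. Taken singly, the precursor genes Cd79a, Pax5 and Blnk also overlapped in C57BL/6. The median log2 difference of the 7 mature B cell markers tested was -0.11 in C57BL/6 and 0.27 in BALB/c. The difference between these lists was not tested. T cell markers, which bear on Rag1 and Rag2 since T cell precursors also use them, summed to 4.93 to 6.81 and 4.17 to 7.23 CPM in C57BL/6 and 6.79 to 7.66 and 7.84 to 9.77 CPM in BALB/c. Of the 7 tested, 5 had a log2 difference below 0 in C57BL/6, with a median of -0.62 over the 7. In BALB/c 6 of the 7 were above 0, with a median of 0.34. Of 7 T cell markers tested, 1, Cd3e, a chain of the T cell receptor complex, passed as lower in C57BL/6 (edgeR adjusted p = 0.0495, on 14 counts in wild type and 2 in mutants). DESeq2 called 0 of the 7 there and limma-voom 1. In BALB/c 0 passed (unadjusted 0, DESeq2 0, limma-voom 0). The level of Cd3e was 0.126 and 0.0151 CPM in wild type and mutant C57BL/6 and 0.376 and 0.582 CPM in wild type and mutant BALB/c, on group means. The 2 T cell markers that did not pass the filter, Cd3g and Cd8a, had 0 to 10 counts in each sample. The 1 mature B cell marker that did not, Cr2, also had 0 to 10. Of 4 plasmacytoid dendritic cell markers tested, 0 passed in either strain, with 0 by unadjusted p, DESeq2 or limma-voom.

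Neutrophil, erythroid and dividing cell genes were also read as lists, beside the 12.6% of all genes called lower in C57BL/6 mutants. In C57BL/6 mutants 6 of 9 neutrophil genes fell, with a median log2 difference of -1.19, among them Mpo, the myeloperoxidase of their granules (-1.88, edgeR adjusted p = 0.00601), and Prtn3 (-1.39, adjusted p = 0.00455). Their sum was 221 to 397 and 113 to 248 CPM in wild type and mutant C57BL/6, and 565 to 662 and 795 to 871 CPM in wild type and mutant BALB/c. The C57BL/6 ranges overlapped and the BALB/c ranges did not. Of 6 erythroid genes tested, 5 fell in C57BL/6 mutants, among them Klf1, the master factor of red cells (-2.51, adjusted p = 8.26e-05). Their sum was 429 to 581 and 162 to 199 CPM in wild type and mutant C57BL/6, and 758 to 1171 and 1336 to 1638 CPM in BALB/c. All 6 genes of dividing cells fell in C57BL/6 mutants, with a median of -0.59, among them Mki67 (-0.75, adjusted p = 0.000355). The difference between the strains' effects passed above 0 for 5 of 9 neutrophil, 5 of 6 erythroid and 5 of 6 dividing cell genes. Over all genes it passed above 0 for 5.46%. In BALB/c 0 of each list passed with edgeR, while 3, 5 and 3 had an unadjusted p under 0.05, DESeq2 called 0, 3 and 2, and limma-voom 0, 0 and 1. The part of a shared change in marrow cells in the results for the B cell precursor genes was not tested.

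Osteoclast and osteoblast genes were called in the other direction in C57BL/6, where 11.3% of all genes were called higher. All 6 osteoclast genes rose in mutants, with a median of 0.97, among them Ctsk, the bone-degrading cathepsin K (0.98, edgeR adjusted p = 0.000210). Of 7 osteoblast genes 5 rose, and of 7 macrophage genes 2, Cd68 and Csf1r, rose while 5 were not called. Of 5 genes found in leukocytes at large, Laptm5 rose (0.64, adjusted p = 0.000676) and Coro1a fell (-0.58, adjusted p = 0.00641).

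**Figure D4:**
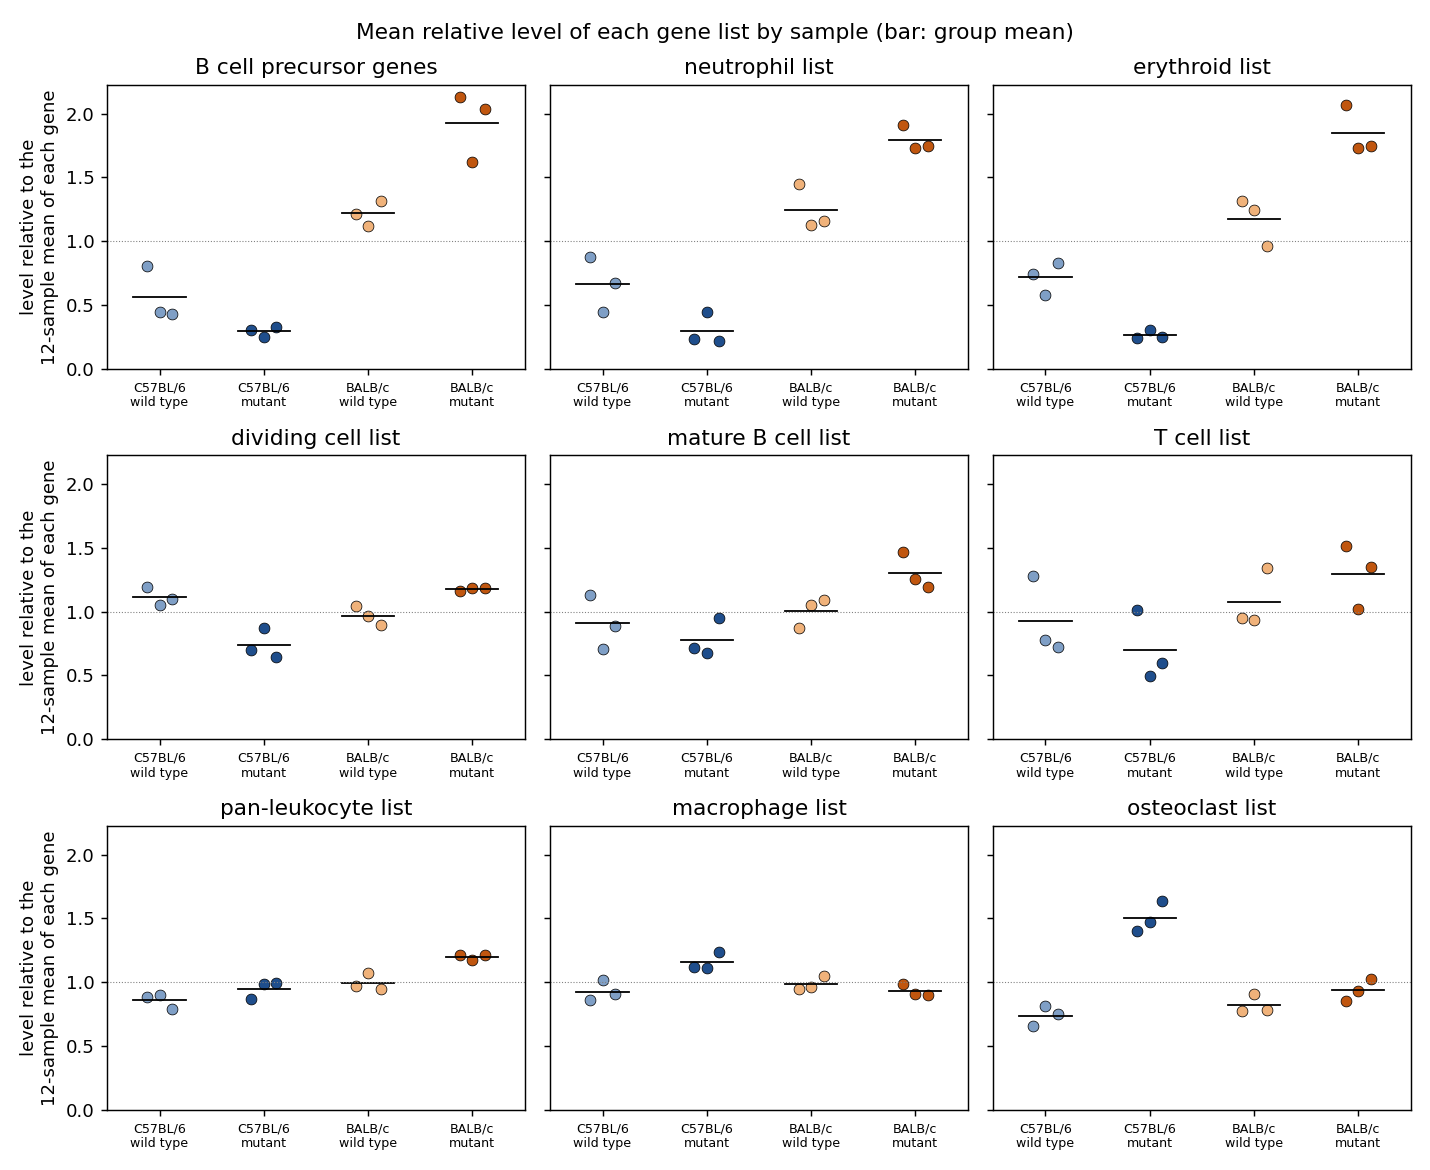
Mean relative level of the 9 genes and of 8 marker lists by sample: each gene's CPM was divided by its mean over the 12 samples (dotted line at 1) and averaged over the list, on a linear axis from 0, with a bar at the group mean. The B cell precursor genes lie at 0.433 to 0.806 in C57BL/6 wild types, 0.248 to 0.326 in C57BL/6 mutants, 1.12 to 1.32 in BALB/c wild types and 1.62 to 2.13 in BALB/c mutants; the neutrophil and erythroid panels are ordered alike by group mean, and the osteoclast panel is highest in C57BL/6 mutants.

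Among 13870 other genes averaging at least 1 CPM, the 10 whose log2 level followed the mean of the 9 most closely over the 12 samples had Pearson r between 0.976 and 0.987. Among them, in order, were Gabarapl2, AI662270, Rcc2, Zfpm1, Lyl1, Ubac1, Epor, Hmha1 and Rhoh. Epor, the erythropoietin receptor of red cell precursors, averaged 5.68, 3.23, 11.2 and 14.9 CPM in wild type and mutant C57BL/6 and wild type and mutant BALB/c. Rhoh, a signalling protein of blood cells, averaged 1.38, 0.787, 3.62 and 4.52 CPM in the same order, whereas Gabarapl2, a general autophagy gene, ranged only from 32.9 to 43.8 CPM over the 4 group means. The points fall into 2 strains with 1 flow cell each, so the coefficients describe these 12 libraries and carry no test.

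In the authors' deposited table of comparisons, 4 of the 9 genes had a q-value under 0.05 in the C57BL/6 genotype comparison: Vpreb1, Vpreb3, Igll1 and Rag2. Their table gave log2 fold changes between -1.04 and -0.18 for the 9, smaller in size than the edgeR values above. The authors' deposited table had 0 of 9 under 0.05 in BALB/c, with log2 fold changes from 0.28 to 0.88. It had 7 of 9 under 0.05 between the wild types of the strains and 9 of 9 between the mutants. The share of all genes under 0.05 in the deposited comparisons was not computed, so these counts stand without a background.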

How the data were processed

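RNA of 12 frontal bone samples was sequenced, and samples were grouped by the strain and genotype in their labels. The authors deposited raw gene counts, with an RPKM value and a gene length beside each, per the file headers; RPKM was not used. The submitters' processing notes name bcl2fastq, TopHat2 2.0.6, HTSeq, DESeq2 and the build mm10, with no role or setting; the annotation, strand setting and filters are not given in the sources used here. A second deposited table compares groups and, per the file headers, holds a log2 fold change, a p-value and a q-value for each gene, which were only quoted.

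Counts as deposited were fitted with edgeR 4.0.16 in R 4.3.3 (filterByExpr, minimum count 10 and minimum total 15, TMM scaling, 4 group means over 12 samples, quasi-likelihood test, Benjamini-Hochberg over 16190 genes, threshold 0.05). Tested on simulated data for the C57BL/6 comparison, the fit called 31 to 45 of about 50 genes per simulated fold size. The alternatives were DESeq2 1.42.0, limma-voom (limma 3.58.1), other scalings, no filter, 1 strain alone and leaving out each sample. CPM used TMM-scaled library totals, and similarity between genes used log2 CPM with a prior count of 2. All 9 members are named. From each list the 3 genes with the smallest adjusted p in C57BL/6, and those called in BALB/c or in the difference between strains, may be named; 2 list genes are not reported here. The members and lists were chosen with earlier results of these data known, so their directions are not independent evidence. Cxcl12, Kitl, Vpreb2, Cd3g, Cd8a, Cr2, Igj and B230118H07Rik are named outside this rule, to state what a list or overlap holds.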

Additional observations from a re-analysis of the deposited data

Results flagged for a closer look

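The genotype effect differed between the strains, tested as the BALB/c difference minus the C57BL/6 one on the log2 scale (edgeR, 3 samples in each of 4 groups), for 6 of the 9 precursor genes. The values were 2.42 for Vpreb3, 2.01 for Igll1, 1.59 for Rag1, 3.16 for Rag2, 1.55 for Cd79a and 1.17 for Cd79b. Over all genes tested, 5.46% passed above 0 and 4.58% below 0.

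The same test passed for 12 named genes of the pathway lists. Among the transcription factors it gave 2.53 for Myb (adjusted p = 0.00453), 1.75 for Ikzf1 (0.00472), 1.87 for Ikzf3 (0.0351), 1.66 for Bcl11a (0.0209), 1.64 for Pou2f2 (0.0412), 1.59 for Pou2af1 (0.0333) and 0.77 for Ebf1 (0.0254). Sfpi1 was the 1 gene with a value below 0, at -0.61 (adjusted p = 0.00594). Among the surface and signalling proteins it gave 2.42 for Cd24a (adjusted p = 0.000109), 2.17 for Il7r (0.0331), 2.16 for Ly6d (0.0383) and 1.64 for Spn (0.00166).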

How the results depend on the processing

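In C57BL/6 the 5 members called became 6 with DESeq2, 7 with total-count scaling, 3 with limma-voom, 4 with no filter on low counts, 0 with the 6 C57BL/6 samples alone and 2 to 5 when 1 sample was left out. The genes called there, 3867, became 1458 with the 6 samples alone and 1724 to 4833 when 1 sample was left out. In BALB/c the 0 members became 2 with DESeq2 and stayed at 0 with each sample left out. The 22 genes became 323 with DESeq2, 44 with limma-voom, 4 with total-count scaling, 71 with the 6 BALB/c samples alone and 0 to 95 with 1 sample left out. For the difference between strains the 6 members became 3 to 8 and the 1626 genes 624 to 3129 with 1 sample left out, and DESeq2 called 2707 genes. Scaling by total counts turned the C57BL/6 split from 1835 higher and 2032 lower to 616 and 4064, and that of the difference between strains from 884 and 742 to 1672 and 175. The strain splits went from 3698 and 4149 to 2221 and 4909 in wild type and from 2914 and 3054 to 4039 and 1915 in mutants. The C57BL/6 Pax5 difference ranged from -0.68 to 0.21 with 1 sample left out and reversed without wild type replicate 1 (0.21) or mutant replicate 5 (0.079). The Blnk difference between wild types ranged from -0.19 to 0.48 with 1 sample left out and reversed to -0.13 with total counts. Without C57BL/6 replicate 2, C57BL/6 replicate 3 or BALB/c replicate 13 it was -0.13, -0.19 and -0.081. The causes were not tested. Over single members, the BALB/c genotype results kept direction and side of the threshold in 159 of 161 refits, and the strain difference in mutants in 153 of 153. No paired analysis was possible because the groups share no replicate numbers. Rag2 and Vpreb1 in C57BL/6 rest on few read pairs, which limits how precisely their change can be given.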
